A study of Huso dauricus with 9 samples.

Results

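The B and plasma cell genes IGHM, CD79A, CD22, MZB1, FCRL5, PRDM1 and SWAP70 were followed in the gut of the kaluga sturgeon (Huso dauricus) after release into a river. The species is a long-lived migratory sturgeon that is reared and released for stock enhancement. A transcript of the assembly was taken as a member when its Swiss-Prot gene name, Swiss-Prot entry name or KEGG gene name was 1 of these 7 names, or when its description was that of the constant region of the Ig mu chain. This gave 20 of the 59331 transcripts in the deposited table: 6 for IGHM, 1 for CD79A, 4 for CD22, 1 for MZB1, 3 for FCRL5, 3 for PRDM1 and 2 for SWAP70. In 14 of them the annotation described the gene itself or a part of its protein. In the other 6 it described another protein, and these are given apart from the named members. Transcript levels were measured by RNA-seq in 9 fish: 3 taken on day 0 of the release (Ori), 3 on day 14 (D14FL) and 3 on day 30 (D30FL), all caught at random with seine nets after the same release. Each library is the gut of 1 fish. Age, sex and strain are not in the labels, and D14FL and D30FL were each compared with Ori, and D30FL with D14FL. No group analysed here was kept out of the river until days 14 or 30, so time in the river, season, food and handling of the libraries cannot be told apart.

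B cells carry an antigen receptor built from immunoglobulin heavy and light chains together with the signalling proteins CD79A and CD79B, and after activation they can become plasma cells that secrete the same immunoglobulin. IgM, whose heavy chain is encoded by IGHM, is the main antibody class of the blood of bony fish, and fish have no lymph nodes, B and plasma cells of their gut lying in the lamina propria and epithelium. CD22 and FCRL5 are receptors that tune signalling of the B cell receptor, MZB1 helps the endoplasmic reticulum of antibody-secreting cells to assemble IgM, PRDM1 (Blimp-1) is a transcription factor of plasma cell differentiation, and SWAP70 is a signalling protein of activated B cells, roles known mainly from mouse and human.

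Levels are the FPKM values deposited by the authors (fragments per kilobase of transcript, on a scale common to libraries). The read depth behind them is unknown, so no counting error can be given, and transcripts of near-identical immunoglobulin genes may share reads. Tests used limma on log2(FPKM + 1) over 54200 transcripts, those that reached an FPKM of 1 in 3 or more libraries, and a transcript was called at a Benjamini-Hochberg adjusted p under 0.05. Log2 changes are given after subtraction of the median change of all tested transcripts (0.384 for D14FL over Ori, 0.372 for D30FL over Ori and -0.00464 for D30FL over D14FL), while the p-values test the change before it. The labels say no more of the 3 fish of a group than that they were separate individuals. The p-values set each change against the spread between fish within groups, which limma pools over the 3 groups and moderates across transcripts.

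Marker transcripts of other tissues were at unequal levels in the libraries, and this stands beside every result below. Of 14 matched gut epithelium markers, the summed level was 2683 to 6426 FPKM in Ori, 3403 to 4277 FPKM in D14FL and 2348 to 4050 FPKM in D30FL, with the fatty acid-binding protein FABP2 as its largest item (mean 1599 FPKM in D14FL and 1381 FPKM in D30FL, against 3137 FPKM in Ori). Their median relative log2 change was 0.30 in D14FL over Ori and -0.11 in D30FL over Ori. The junction protein CDH1 alone was called, at a mean of 78.2 FPKM in D14FL and 164 FPKM in D30FL, against 4.06 FPKM in Ori (limma adjusted p = 0.00506 and 0.00172). Of 8 exocrine pancreas enzymes, it was 74.4 to 136 FPKM in Ori, 405 to 8472 FPKM in D14FL and 1362 to 4447 FPKM in D30FL. The 4 matched skeletal muscle genes (CKM, MYLPF, TNNI2 and TNNT3) summed to 26.6 to 73.9 FPKM in Ori and to at most 0.0627 FPKM in D14FL, and were listed at 0 in every D30FL fish. Whether these differences lie in tissue content or in expression per cell, and their part in the results, was not tested.

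None of the 19 member transcripts that passed the filter on low values was called in any comparison. PRDM1 transcript TRINITY_DN30951_c0_g1_i2_1 did not pass the filter. Across all tested transcripts, 2.77% were called in D14FL over Ori, 3.22% in D30FL over Ori and 0.00185% in D30FL over D14FL, so a list of this size holding no call is near the background. At an unadjusted limma p under 0.05 the members numbered 0, 1 and 1 in these comparisons, where 23.1%, 24.0% and 3.84% of all tested transcripts passed. The lowest adjusted p among the members was 0.217 for D14FL over Ori, 0.0746 for D30FL over Ori and 1 for D30FL over D14FL.

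The median relative log2 change of the 19 members was -0.52 in D14FL over Ori, -0.33 in D30FL over Ori and 0.09 in D30FL over D14FL, against 0 for all tested transcripts by construction. In 2 members every D14FL fish lay above every Ori fish (27.8% of all tested transcripts did so), and in 1 every D14FL fish lay below (6.70%). Likewise 2 members had every D30FL fish above every Ori fish (20.8%) and 1 had every D30FL fish below (6.14%). The 2 above Ori, transcripts of FCRL5 and PRDM1, were under 1 FPKM in every Ori fish. They passed the filter on low values only through D14FL and D30FL fish, which favours such a separation. Between D30FL and D14FL no member separated in either direction (3.83% of all tested transcripts were higher throughout and 4.46% lower throughout). No member was called lower. In bulk tissue the level of these genes depends on the number of B cells, the RNA per cell and the other tissue in the library. The data cannot tell these apart.

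**Figure D1:**
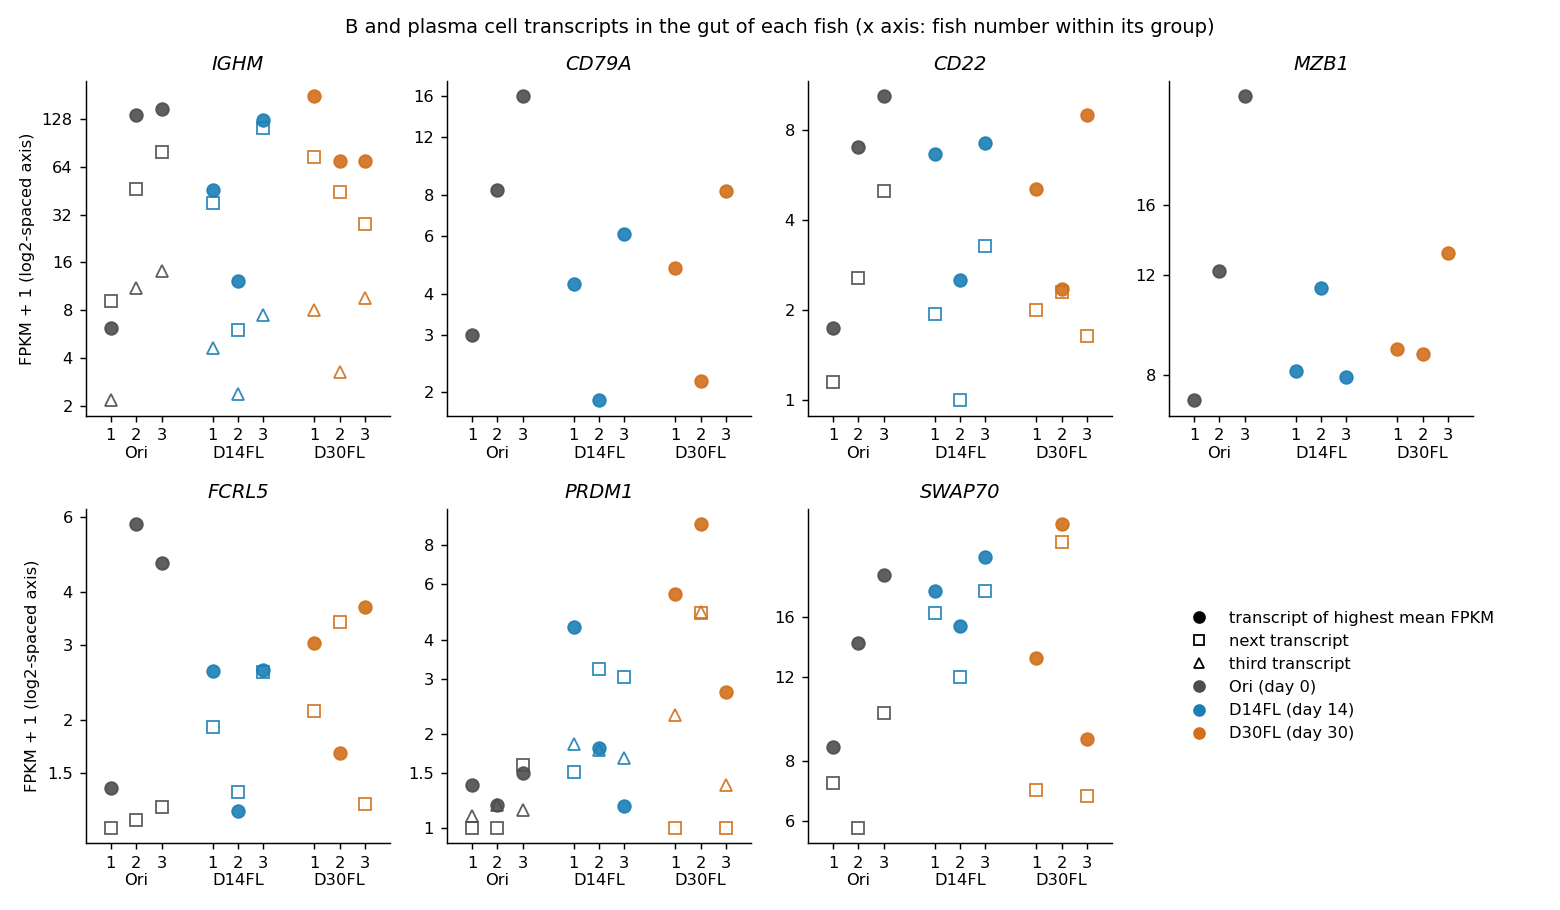
FPKM + 1 on a log2-spaced axis for the 14 transcripts named as 1 of the 7 genes, with 1 point for each transcript and fish and fish numbers along the x axis within Ori, D14FL and D30FL. Filled circles are the transcript of highest mean FPKM of each gene; for IGHM they run from 5.18 FPKM in Ori 1 to 176 FPKM in D30FL 1, and the groups overlap.

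IGHM was the most abundant member. Its leading transcript, TRINITY_DN31414_c3_g1_i2_2, had 5.18, 133 and 145 FPKM in Ori 1, 2 and 3. Its closest match, in Acipenser baerii, is described as a partial variable region of a mu heavy chain. The D14FL fish had 44.5, 11.3 and 124 FPKM, and the D30FL fish had 176, 68.0 and 68.6 FPKM. The 3 groups overlap, with Ori 1 and D14FL 2 far below the rest, and no D30FL fish was as low as these. The relative log2 change of this transcript was -0.65 ± 1.10 (SE) in D14FL over Ori and 0.56 ± 1.10 in D30FL over Ori, with limma adjusted p of 0.902 and 0.619. The 95% intervals of these changes, -3.06 to 1.76 and -1.85 to 2.97, leave room for several-fold differences in either direction, so the test does not show equal levels.

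The second IGHM transcript, TRINITY_DN27740_c3_g3_i13_3, annotated as a heavy chain constant region, gave the same picture. It had 8.19, 45.3 and 78.2 FPKM in the Ori fish, 36.7, 5.07 and 111 FPKM in the D14FL fish and 72.9, 43.2 and 26.7 FPKM in the D30FL fish. Again Ori 1 and D14FL 2 were the lowest of the 9 fish. The third transcript, TRINITY_DN31414_c3_g2_i2_2, is annotated as the membrane-bound form of the mu chain, the form that serves as antigen receptor on the B cell surface. It had 1.18, 10.1 and 13.1 FPKM in Ori, 3.68, 1.38 and 6.47 FPKM in D14FL and 7.03, 2.31 and 8.65 FPKM in D30FL. Summed over the 3 named transcripts, IGHM stood at 14.5 to 237 FPKM in Ori, 17.7 to 241 FPKM in D14FL and 104 to 256 FPKM in D30FL, a 17.6-fold range over the 9 fish.

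The membrane-bound transcript (relative log2 change -1.06 ± 0.70 in D14FL over Ori and -0.51 ± 0.70 in D30FL over Ori, limma adjusted p = 0.573 and 0.919) made up a varying share of the IGHM sum. The share was 8.10%, 5.36% and 5.54% in the Ori fish, 4.34%, 7.81% and 2.68% in the D14FL fish and 2.75%, 2.03% and 8.32% in the D30FL fish. The 3 groups overlap, and the highest shares lie in fish with low and with middling IGHM. These transcripts may be pieces of the same gene, so the shares compare assembled pieces and not measured amounts of the membrane and secreted forms.

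Immunoglobulin light chains, the partners of the heavy chain, followed IGHM fish by fish. The summed FPKM of 10 transcripts annotated as light chains was 95.0, 795 and 1097 in the Ori fish. It was 369, 68.0 and 967 in the D14FL fish and 1230, 523 and 599 in the D30FL fish. This is an 18.1-fold range over the 9 fish, with Ori 1 and D14FL 2 lowest as for IGHM. The ratio of the light chain sum to the IGHM sum, in contrast, stayed between 3.84 (D14FL 2) and 6.53 (Ori 1) in every fish, a 1.70-fold range. This IGHM sum holds the 3 named transcripts and leaves out 2 others described as mu heavy chains. The larger, TRINITY_DN28354_c0_g1_i2_2, had 3.08, 26.7 and 55.6 FPKM in Ori and 34.2, 0.899 and 198 FPKM in D14FL. In D30FL it had 99.1, 92.4 and 12.6 FPKM. This ratio and the other IGHM ratios therefore depend on the choice of transcripts. The most abundant light chain transcript, TRINITY_DN34646_c0_g3_i5_1, had 48.3, 542 and 618 FPKM in Ori, 148, 51.9 and 282 FPKM in D14FL and 511, 181 and 330 FPKM in D30FL. It is named kappa by its closest protein match and lambda by Swiss-Prot, so the light chain types were not separated.

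IgD, a heavy chain class that B cells of many fish carry beside IgM, was less abundant. The 4 transcripts annotated as delta heavy chains, 1 of them a member row of IGHM by its KEGG or Swiss-Prot name, summed to 5.77, 18.8 and 37.3 FPKM in the Ori fish, 12.9, 3.15 and 14.8 FPKM in the D14FL fish and 8.96, 10.7 and 22.3 FPKM in the D30FL fish. Ori 1 and D14FL 2 were the lowest of their groups here as well, and the groups overlap. The ratio of the IGHM sum to the delta sum ran from 2.52 in Ori 1 to 28.6 in D30FL 1, an 11.3-fold range. None of the 24 immunoglobulin chain transcripts that are no members was called by limma in any of the 3 comparisons, and 0, 3 and 1 of them had an unadjusted p under 0.05 in D14FL over Ori, D30FL over Ori and D30FL over D14FL. Of all tested transcripts 23.1%, 24.0% and 3.84% did.

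**Figure D2:**
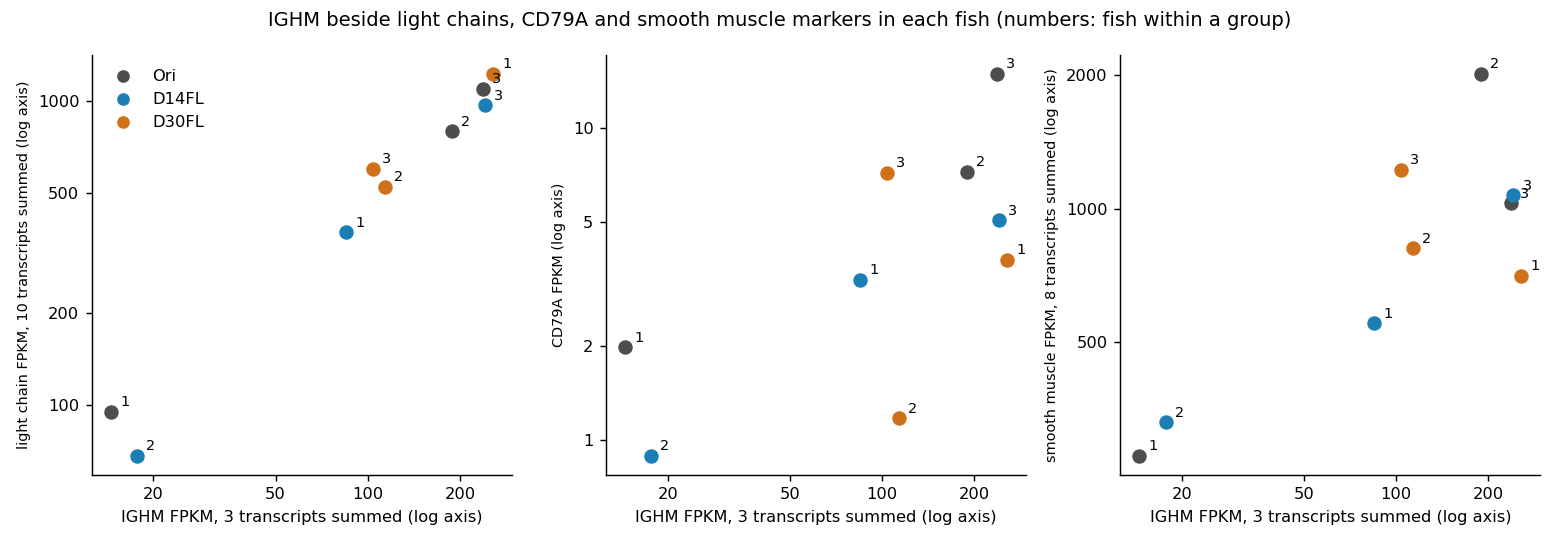
Summed IGHM FPKM of each fish on the x axis against the light chain sum, CD79A and the sum of 8 smooth muscle markers in FPKM, all on log axes, with fish numbers beside the points. Light chains keep within 3.84 and 6.53 times this sum of 3 named transcripts, CD79A spreads more widely at a given IGHM level, and Ori 1 and D14FL 2 are lowest for IGHM, light chains and smooth muscle.

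CD79A, the signalling chain that holds the B cell receptor at the membrane, marks B cells. Its single transcript, TRINITY_DN25923_c0_g1_i11_2, had 1.99, 7.24 and 15.0 FPKM in the Ori fish, 3.27, 0.890 and 5.08 FPKM in the D14FL fish and 3.78, 1.17 and 7.20 FPKM in the D30FL fish. The highest values lay in Ori 3, Ori 2 and D30FL 3, and the groups overlap through the low Ori 1. The mean was 3.08 ± 2.10 FPKM in D14FL and 4.05 ± 3.02 FPKM in D30FL, against 8.06 ± 6.52 FPKM in Ori (SD, n = 3 each). The relative log2 change was -1.38 ± 0.68 in D14FL over Ori (95% interval -2.86 to 0.09, limma adjusted p = 0.381) and -1.11 ± 0.68 in D30FL over Ori (-2.58 to 0.37, adjusted p = 0.516). Neither change was called, and with intervals this wide the test shows neither a difference nor equal levels.

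IGHM and CD79A did not keep step as IGHM and the light chains did. The ratio of the IGHM sum to CD79A was 7.32, 26.1 and 15.8 in the Ori fish, 26.0, 19.9 and 47.5 in the D14FL fish and 67.6, 96.7 and 14.4 in the D30FL fish. The means were 31.1 ± 14.5 in D14FL and 59.6 ± 41.7 in D30FL, against 16.4 ± 9.38 in Ori (SD, n = 3 each). The ratio spans 13.2-fold over the 9 fish and the groups overlap, since D30FL 3 lies below Ori 2 and Ori 3. D30FL 1 and D30FL 2, the highest of all, combine 256 and 114 FPKM of IGHM with 3.78 and 1.17 FPKM of CD79A. This ratio divides by a single transcript at 0.890 to 15.0 FPKM, for which no counting error can be given. It was chosen with the values known and was not tested.

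CD22, a sialic acid-binding inhibitory receptor of B cells, had 2 transcripts described as CD22-like. The leading one, TRINITY_DN34848_c0_g3_i3_3, had 0.747, 6.01 and 9.34 FPKM in the Ori fish, 5.62, 1.52 and 6.20 FPKM in the D14FL fish and 4.06, 1.36 and 7.97 FPKM in the D30FL fish. Low fish were Ori 1, D30FL 2 and D14FL 2, 1 in each group, so the groups overlap almost fully. Its relative log2 change was -0.41 ± 0.70 in D14FL over Ori (95% interval -1.94 to 1.12) and -0.45 ± 0.70 in D30FL over Ori (-1.98 to 1.08), with limma adjusted p of 0.987 and 0.953. The other CD22 transcript lay between 0 and 3.98 FPKM, was highest in Ori 3 and was listed at 0 in D14FL 2.

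FCRL5, an immunoglobulin-binding receptor of B cells in mouse and human, also had 2 named transcripts, and they differed in pattern. TRINITY_DN29473_c0_g1_i1_2 had 0.381, 4.77 and 3.66 FPKM in the Ori fish, 1.60, 0.219 and 1.62 FPKM in the D14FL fish and 2.03, 0.672 and 2.68 FPKM in the D30FL fish. It shared its low fish with CD79A and CD22. TRINITY_DN26497_c0_g1_i2_1 instead had 0.111, 0.163 and 0.244 FPKM in the Ori fish, 0.922, 0.354 and 1.59 FPKM in the D14FL fish and 1.10, 2.39 and 0.269 FPKM in the D30FL fish. Every D14FL and D30FL fish lay above every Ori fish, but all levels were low. This second transcript passed the filter only through D14FL and D30FL fish. Its relative log2 changes of 0.30 ± 0.44 and 0.46 ± 0.44 in D14FL and D30FL over Ori had limma adjusted p of 0.362 and 0.272. The relative log2 changes of the first transcript were -1.10 ± 0.59 and -0.70 ± 0.59, with adjusted p of 0.468 and 0.749.

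MZB1, a chaperone partner of the endoplasmic reticulum, varied less between fish than the receptor genes. Its transcript, TRINITY_DN22829_c0_g1_i1_2, had 6.22, 11.2 and 23.8 FPKM in the Ori fish, 7.13, 10.4 and 6.94 FPKM in the D14FL fish and 7.92, 7.71 and 12.1 FPKM in the D30FL fish. The D14FL and D30FL fish lie in a narrow band that falls inside the range of Ori, where Ori 3 is highest and Ori 1 lowest. D14FL 2, the lowest fish for IGHM in its group, was the highest of its group for MZB1. The relative log2 change was -0.91 ± 0.43 in D14FL over Ori (95% interval -1.86 to 0.04, limma adjusted p = 0.474) and -0.74 ± 0.43 in D30FL over Ori (-1.69 to 0.21, adjusted p = 0.618). IGHM per MZB1 ran from 1.70 in D14FL 2 to 34.7 in D14FL 3, so these 2 genes of antibody-secreting cells were far from proportional.

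PRDM1, which switches B cells to the plasma cell state and in mouse is also made by intestinal epithelium and T cells, was the member nearest to a call. The leading transcript, TRINITY_DN7067_c0_g1_i1_1, had 0.372, 0.182 and 0.498 FPKM in the Ori fish, 3.39, 0.804 and 0.177 FPKM in the D14FL fish and 4.57, 8.36 and 1.73 FPKM in the D30FL fish. Every D30FL fish lay above every Ori fish, while D14FL reached from the Ori level to that of D30FL. No Ori fish reached 1 FPKM, so the transcript passed the filter only through D14FL and D30FL fish. The relative log2 change was 1.59 ± 0.56 in D30FL over Ori (95% interval 0.35 to 2.82, limma adjusted p = 0.0746) and 0.26 ± 0.56 in D14FL over Ori (-0.97 to 1.49, adjusted p = 0.498). Without D30FL 3, the lowest of its group, the value was 1.97 and passed (adjusted p = 0.0255); over all 20 alternatives the adjusted p ran from 0.00395 to 0.218. Being low in Ori, the transcript depended on the pseudocount for the size of its change, which was 2.76 and 3.06 at pseudocounts of 0.1 and 0.01, and it did not pass at either (adjusted p = 0.0843 and 0.111).

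The other PRDM1 transcripts were scarcer. TRINITY_DN30951_c0_g1_i2_1 had 0.0933, 0.187 and 0.146 FPKM in the Ori fish, 0.853, 0.772 and 0.676 FPKM in the D14FL fish and 1.30, 3.91 and 0.372 FPKM in the D30FL fish. Every D14FL and D30FL fish was above every Ori fish, and the transcript was too low to be tested. TRINITY_DN21051_c0_g1_i1_1 was listed at 0 in Ori 1, Ori 2, D30FL 1 and D30FL 3 and reached 3.88 FPKM in D30FL 2. The 3 PRDM1 transcripts summed to 0.369 to 1.23 FPKM in Ori, 2.90 to 4.75 FPKM in D14FL and 2.10 to 16.2 FPKM in D30FL, with no overlap between Ori and either later group. Of all single tested transcripts, 27.8% lay wholly above Ori in D14FL and 20.8% in D30FL. With the transcripts of each gene summed before the fit, PRDM1 in D30FL over Ori had a relative log2 change of 1.76 and an adjusted p of 0.0560, which did not pass.

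SWAP70, which acts downstream of the B cell receptor and is also made outside the B lineage, was present in every fish at moderate levels. TRINITY_DN35846_c3_g1_i6_3 had 7.55, 13.1 and 18.6 FPKM in the Ori fish, 17.1, 14.3 and 20.3 FPKM in the D14FL fish and 12.1, 23.9 and 7.90 FPKM in the D30FL fish. The second transcript, TRINITY_DN38245_c3_g2_i3_2, had 6.22, 4.80 and 9.09 FPKM in Ori, 15.2, 11.0 and 17.1 FPKM in D14FL and 5.97, 21.9 and 5.76 FPKM in D30FL. For the second transcript every D14FL fish lay above every Ori fish, whereas D30FL held both the highest fish and values at the Ori level. Its relative log2 change was 0.64 ± 0.47 in D14FL over Ori (limma adjusted p = 0.217) and 0.08 ± 0.47 in D30FL over Ori (adjusted p = 0.567). For the first transcript these changes were 0.06 ± 0.43 and -0.27 ± 0.43, with adjusted p of 0.544 and 0.899. D14FL 2, the fish with the lowest CD79A, was thus above most Ori fish for the first transcript and above all of them for the second.

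**Figure D3:**
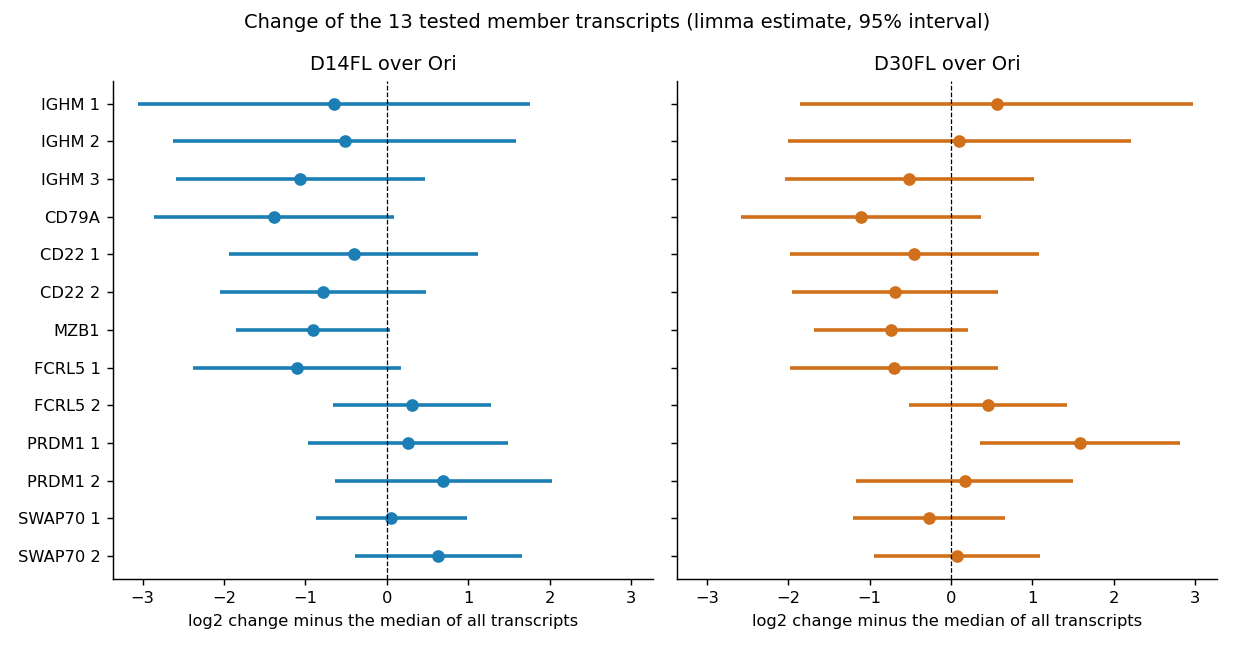
Relative log2 change of the 13 named and tested member transcripts in D14FL over Ori and D30FL over Ori (points, limma estimates; lines, 95% intervals; numbers rank the transcripts of a gene by mean FPKM). Of the 26 intervals only that of the leading PRDM1 transcript in D30FL over Ori, 0.35 to 2.82, leaves out 0, and none of the changes was called. That transcript was under 1 FPKM in every Ori fish and passed the filter only through D14FL and D30FL fish. The intervals are not adjusted for their number.

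The 6 rows set apart have names of the 7 genes but other descriptions. TRINITY_DN34872_c0_g1_i2_2 and TRINITY_DN24208_c0_g1_i1_2, matched to IGHM, are described as ligands of the natural cytotoxicity receptor NCR3, and TRINITY_DN34872_c0_g1_i2_2 stayed between 3.81 and 6.77 FPKM in all 9 fish. TRINITY_DN24208_c0_g1_i1_2 was the only member lower in every D14FL and D30FL fish than in every Ori fish, at 2.31 to 2.76 FPKM in D14FL and 1.26 to 3.64 FPKM in D30FL, against 3.72 to 4.78 FPKM in Ori. Its relative log2 change was -0.93 ± 0.38 and -1.09 ± 0.38 in these comparisons, with limma adjusted p of 0.393 and 0.260. The rows matched to CD22 but described as sialoadhesin-like and as the lectin Siglec-10, the delta heavy chain, and the row matched to FCRL5 but described as a high affinity Fc gamma receptor had means between 1.42 and 5.01 FPKM over the 9 fish, and none was called.

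Fish of the same group differed widely. The residual SD of the 2 leading IGHM transcripts on the log2 scale was 1.84 and 1.59, larger than in 99.7% and 99.3% of all tested transcripts, whose median was 0.56. CD79A at 1.03 and the leading CD22 transcript at 1.07 stood at 92.6% and 94.1%, while MZB1 at 0.58 and the leading SWAP70 transcript at 0.57 were near the median. These ranks are over transcripts of all levels, and log2(FPKM + 1) narrows the spread of low ones. No ranks among transcripts of like level were computed. Within Ori, fish 1 was the lowest for 11 of the 13 named and tested members and for 19 of the 24 other immunoglobulin chains, against 50.4% of all tested transcripts. Within D14FL, fish 2 was the lowest for 10 of 13 and 23 of 24, against 38.1%. Both held together for 9 of 13 members and 19 of 24 chains, against 20.3% of all tested transcripts. This pair of fish was singled out after the values were seen, and the 13 members include the IGHM transcripts in which the pair stood out. The counts therefore describe the pattern and are no independent test of it. Ori 1 also had the fewest transcripts at an FPKM of at least 1 in its group, 35812 against 41008 and 41584. The same held for D14FL 2, with 45145 against 48105 and 47031. The part of this in the pattern was not tested. Within D30FL the lowest fish was fish 2 for 6 of 13 members and fish 3 for 6 of 13, against 31.7% and 45.3% of all tested transcripts.

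The same fish were low for markers of other cell types, though not for all. Ori 1 was the lowest Ori fish for 8 of 8 smooth muscle markers and D14FL 2 the lowest D14FL fish for 7 of 8. The smooth muscle sum was 278, 2012 and 1028 FPKM in the Ori fish, 552, 330 and 1071 FPKM in the D14FL fish and 706, 813 and 1222 FPKM in the D30FL fish. Exocrine pancreas enzymes were lowest in Ori 1 for 6 of 8 and in D14FL 2 for 8 of 8. Markers of T and natural killer cells were lowest in Ori 1 for only 1 of 13, in Ori 2 for 11 of 13 and in D14FL 2 for 9 of 13, and gut epithelium markers in Ori 1 for 6 of 14 and in D14FL 2 for 3 of 14. The summed level of the T and natural killer cell markers was 67.1, 27.5 and 43.1 FPKM in the Ori fish, 55.8, 43.5 and 53.8 FPKM in the D14FL fish and 32.0, 51.1 and 35.8 FPKM in the D30FL fish, highest in Ori 1, where IGHM was lowest. The part of gut wall content in the immunoglobulin levels was not tested. Without Ori 1 and D14FL 2, left out after the values were seen, 18 members were tested and again none was called in any of the 3 comparisons.

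**Figure D4:**
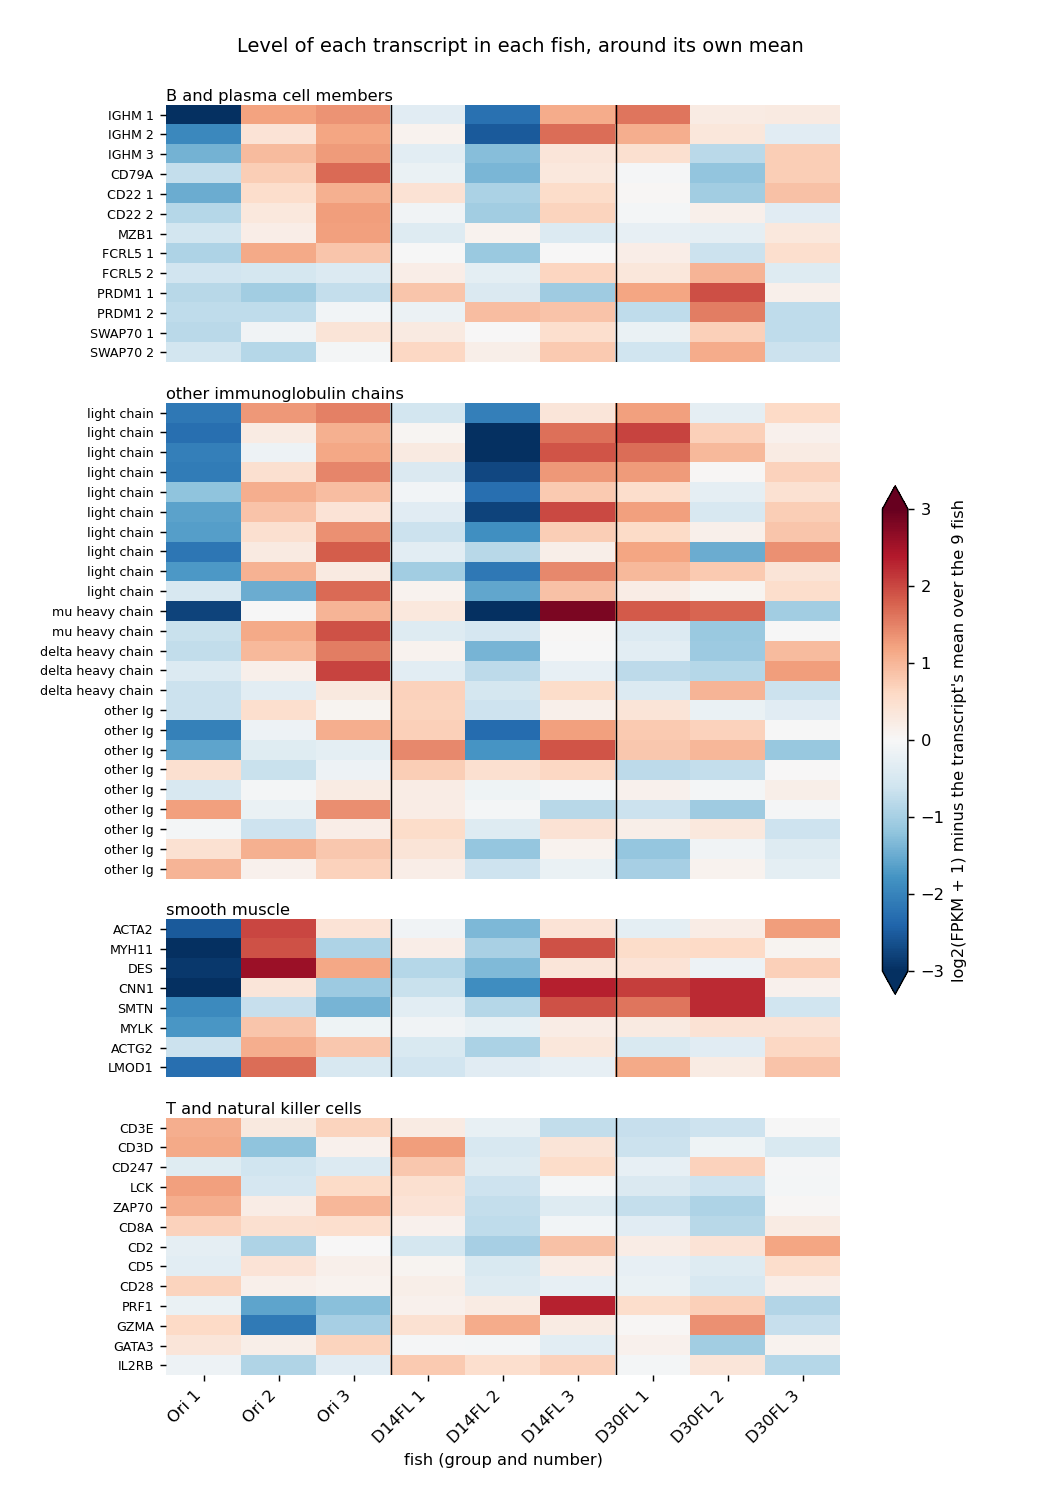
Colour shows log2(FPKM + 1) of each tested transcript minus its mean over the 9 fish, with fish in columns and blocks for the 13 named members (numbered by mean FPKM within a gene), 24 other immunoglobulin chains, 8 smooth muscle markers and 13 markers of T and natural killer cells. Ori 1 and D14FL 2 are blue for IGHM, CD79A, CD22 and the light chains, whereas PRDM1 has another order of fish. For the leading SWAP70 transcript Ori 1 and D14FL 2 are also the lowest of their groups, but D14FL 2 lies above Ori 1 and Ori 2.

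Genes that act beside the members were examined as lists. Of 28 listed genes of B cell receptor and co-receptor signalling, 21 were matched and 20 tested, with a median relative log2 change of -0.19 in D14FL over Ori and -0.15 in D30FL over Ori. None was called by limma (unadjusted p under 0.05 in 1 and 1, against 23.1% and 24.0% of all tested transcripts). CD79B, the partner of CD79A, had 0.988, 2.01 and 5.26 FPKM in the Ori fish, 3.45, 0 and 7.05 FPKM in the D14FL fish and 0.879, 3.58 and 1.37 FPKM in the D30FL fish. It was listed at 0 in D14FL 2, the fish with the lowest CD79A. In D30FL the order differed: fish 2 had the highest CD79B of its group and, at 1.17 FPKM, the lowest CD79A. Ori 1 was the lowest Ori fish for 16 of the 20 genes and D14FL 2 the lowest D14FL fish for 15.

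Of the plasma cell list 9 of 16 genes were tested. The median relative log2 change was -0.40 in D14FL over Ori and -0.10 in D30FL over Ori. None of these genes was called by limma. In D14FL and D30FL over Ori 4 and 2 had an unadjusted p under 0.05, where 23.1% and 24.0% of all tested transcripts did. XBP1, a transcription factor of the secretory pathway in plasma cells and other secretory cells, had 175, 248 and 187 FPKM in the D14FL fish and 211, 237 and 172 FPKM in the D30FL fish, against 116, 88.6 and 106 FPKM in the Ori fish. Every D14FL and D30FL fish was above every Ori fish, as held for 27.8% and 20.8% of all tested transcripts. The relative log2 changes of XBP1 were 0.58 ± 0.29 and 0.61 ± 0.29 (limma adjusted p = 0.0881 and 0.0760). The disulfide isomerase PDIA4 averaged 14.1 ± 5.08 FPKM in D14FL against 41.8 ± 10.6 FPKM in Ori (SD, n = 3 each), which did not pass (relative log2 change -1.90 ± 0.45, adjusted p = 0.0864). PDIA6 averaged 23.6 FPKM in D14FL and 50.6 FPKM in D30FL, against 49.8 FPKM in Ori. The relative log2 change of PDIA6 in D14FL over Ori was -1.43 ± 0.34 (limma adjusted p = 0.112). IRF4, which with PRDM1 sets the plasma cell state, averaged 6.24 ± 3.01 FPKM in D14FL and 6.39 ± 0.60 FPKM in D30FL, against 5.77 ± 3.21 FPKM in Ori (SD, n = 3 each). Of 18 listed transcription factors and diversification genes 7 were tested and none was called, BCL6, a repressor of PRDM1 in germinal centre B cells of mammals, coming nearest at day 14 with a relative log2 change of 1.17 ± 0.38 (adjusted p = 0.0529).

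Among the listed genes of B cell biology, calls were found in the lists of the lymphoid niche and of immunoglobulin receptors. Of 12 tested niche and homing genes, 1 was called higher in D14FL over Ori and 2 in D30FL over Ori, and none was called lower. Of 9 listed immunoglobulin receptor genes only 3 were tested, and 1 was called, higher in D14FL over Ori. None of these receptor genes was called in D30FL over Ori. Across all tested transcripts 2.77% and 3.22% were called. In D14FL over Ori 1176 of those calls were higher and 325 lower. CXCR4, a chemokine receptor that guides lymphocytes and many other cells, had 38.8, 16.2 and 67.2 FPKM in the D14FL fish and 61.3, 47.1 and 37.8 FPKM in the D30FL fish, against 5.12, 3.94 and 14.5 FPKM in the Ori fish. Its relative log2 change was 1.83 ± 0.53 in D14FL over Ori (limma adjusted p = 0.0490) and 2.28 ± 0.53 in D30FL over Ori (adjusted p = 0.0286). TNFSF13B (BAFF), a survival factor for B cells that myeloid and stromal cells release, had 8.47, 12.8 and 5.93 FPKM in the D30FL fish against 1.17, 2.29 and 3.69 FPKM in the Ori fish, with a relative log2 change of 1.21 ± 0.39 (adjusted p = 0.04996). FCER1G, a signalling chain of Fc receptors on myeloid cells, had 14.0, 16.8 and 19.1 FPKM in the D14FL fish against 3.52, 2.86 and 4.42 FPKM in the Ori fish, with a relative log2 change of 1.56 ± 0.46 (adjusted p = 0.0479). All 3 lay close to the threshold, and leaving out single libraries ended most of the calls. The call of CXCR4 at day 14 was lost without Ori 1, Ori 2, Ori 3, D14FL 1, D14FL 3 or D30FL 1 (adjusted p up to 0.143), and at day 30 without Ori 1, Ori 2, D30FL 1 or D30FL 2 (up to 0.112). Of the single libraries, only the removal of D30FL 3 kept the call of TNFSF13B at day 30, and only that of D30FL 2 or D30FL 3 the call of FCER1G at day 14, with adjusted p up to 0.156 and 0.131 without the others. Under median-of-ratios scaling the adjusted p was 0.0923 for CXCR4 at day 14, 0.0459 for CXCR4 at day 30, 0.0774 for TNFSF13B at day 30 and 0.0862 for FCER1G at day 14. Over all 21 alternatives the calls held in 7, 15, 4 and 8 cases, in the same order. The summed level of 13 phagocyte and granulocyte markers, which stands beside them, was 514 to 810 FPKM in D14FL and 416 to 2063 FPKM in D30FL, against 217 to 416 FPKM in Ori. Lysozyme (LYZ) was the largest item of this sum, with 1793 FPKM in D30FL 2 alone. Over the 13 markers the median relative log2 change was -0.11 in D14FL over Ori and -0.13 in D30FL over Ori. None was called by limma (unadjusted p under 0.05 in 3 and 2, against 23.1% and 24.0% of all tested transcripts). The part of these markers in these calls was not tested.

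The transcripts nearest in pattern to the leading IGHM and CD79A transcripts were sought among 21377 tested transcripts with a Swiss-Prot gene name, by the root-mean-square difference of log2(FPKM + 1) over the 9 libraries after centring each on its mean. For IGHM the nearest 5 were a tropomyosin (0.56), SH3BGR (0.65), a gene described as CHCHD10 (0.72), TMEM229B (0.72) and one described as HAND2 (0.73). For CD79A they included PCP4 (0.28), 2 transcripts of GCSH (0.28 and 0.30) and LY-9 (0.40), of which Ly-9 is a lymphocyte surface protein. The likeness is a description over the 9 libraries, in which all genes share the depth and the tissue make-up of each library.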

How the data were processed

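RNA-seq libraries of poly(A)-selected gut RNA were analysed for 9 fish, 3 each in Ori, D14FL and D30FL; a day 7 group was not analysed here. The deposited values are FPKM per assembled transcript, as the authors named the values; TPM of a reduced list could not be distinguished. Per the submitters' processing notes, cutadapt 1.9 was used and the build mm10 is listed without a role. No source used here gives the aligner, the counter or the read depth. The smallest value above 0 was 3.63e-118, so whole reads were not recovered and no counting interval is given. No reference sequence was used here.

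Computed from the FPKM values were log2(FPKM + 1), a filter (FPKM of 1 or more in 3 or more libraries) and limma 3.58.1 in R 4.3.3 (linear models with a trended variance prior, two-sided, Benjamini-Hochberg over 54200 transcripts) on all 9 libraries without a block; residual and prior degrees of freedom were 6 and 5.73. The fit was tested on simulated data. Intervals of 95% use the moderated standard error. Other software was Python 3.11.15, pandas 2.3.3, numpy 2.4.6, matplotlib 3.10.9 and the R package data.table, version 1.17.8.

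Every transcript matching the naming rule is accounted for. Values of each fish are given for the transcript of highest mean FPKM of each gene, and for others shown. For each context or marker list the transcript of highest mean FPKM stands for a symbol, 17 matches to another protein were left out, and the genes named are called ones or otherwise among the 3 with the smallest p; CD79B, IRF4 and PRDM1 sums, and all ratios, were chosen after their values were seen. A transcript near CD79A in pattern is not reported here. The members and lists were chosen with earlier results of these data known. Alternatives were other pseudocounts (0.1, 0.01), filters, scalings, summed transcripts, robust fitting, library weights, fits of 2 groups, a replicate block, and libraries left out.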

Additional observations from a re-analysis of the deposited data

How the results depend on the processing

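In D14FL over Ori no member was called under any of 21 alternatives. In D30FL over Ori the count was 0 except with estimated library weights (3 members: PRDM1 and an FCRL5 transcript higher, the Fc gamma receptor-like row lower) and with libraries left out (0 to 1, PRDM1 without D30FL 3). In D30FL over D14FL it was 0 except with library weights (1, a SWAP70 transcript, lower). The weights, whose estimation stopped before convergence, also raised the calls among all transcripts to 6730, 18672 and 6462, against 1501, 1746 and 1 without them. Leaving out libraries gave 138 to 3763, 98 to 6605 and 0 to 2 calls. Replicate numbers did not pair the fish: correlations of same-numbered libraries' deviations from group means ran from -0.315 to 0.0843 and of the others from -0.0913 to 0.277. The replicate block left 0 members called in each comparison, with 315, 357 and 1 calls among all transcripts. Median-of-ratios scaling brought the median change of all transcripts to 0.0428, 0.056 and 0.0192; calls in D14FL over Ori were then 435 higher and 646 lower, against 1176 and 325, and in D30FL over Ori 534 and 709, against 1349 and 397. Relative log2 changes of leading transcripts that turned sign, none of them called, were IGHM at day 14 (-2.08 to 0.20 with libraries left out), IGHM at day 30 (-0.86 to 1.26, and -0.87 without Ori 1 and D14FL 2, an alternative chosen after seeing the data), CD22 at day 14 (-1.10 to 0.055) and day 30 (-1.14 to 0.14), PRDM1 at day 14 (-0.24 to 0.68) and SWAP70 at day 14 (-0.19 to 0.25; -0.079 and -0.11 at pseudocounts 0.1 and 0.01, -0.069 by median-of-ratios scaling, -0.091 with library weights and -0.090 without Ori 1 and D14FL 2). CD79A, MZB1 and FCRL5 stayed below 0 and PRDM1 at day 30 above 0 under every alternative run, but single libraries moved their size: with libraries left out the change was -1.96 to -0.90 at day 14 and -1.68 to -0.51 at day 30 for CD79A, -1.26 to -0.52 and -1.09 to -0.35 for MZB1, -1.66 to -0.76 and -1.27 to -0.28 for FCRL5, and 1.25 to 1.97 for PRDM1 at day 30. With the replicate block the adjusted p was 0.0680 and 0.0442 for CXCR4 at days 14 and 30, 0.0992 for TNFSF13B at day 30 and 0.0973 for FCER1G at day 14. The causes were not tested. The unknown depth limits what can be said of transcripts near 0.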

Other observations

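Set against each of 5 general leukocyte genes, CD79A had a lower mean ratio in D14FL and in D30FL than in Ori. The separation of single fish differed between the 5 genes. The ratio of CD79A to PTPRC (CD45) was 0.282, 0.135 and 0.384 in the D14FL fish and 0.454, 0.0534 and 0.918 in the D30FL fish, against 0.691, 1.48 and 2.19 in the Ori fish. With PTPRC, and likewise with CD53 (0.188, 0.0593 and 0.209 in D14FL against 0.260, 0.569 and 0.922 in Ori), every D14FL fish lay below every Ori fish. Among single transcripts, 6.70% of all tested ones did so, and the share among ratios was not computed. The ratios were chosen after their values were seen and were not tested. With CORO1A (0.321, 0.125 and 0.452 in D14FL against 0.154, 0.752 and 0.603 in Ori), RAC2 and LAPTM5 the groups overlap, D14FL and Ori only through Ori 1. With CD3E, a T cell receptor chain, they overlap too, the ratios being 0.425, 0.168 and 1.49 in D14FL and 1.07, 0.307 and 1.13 in D30FL, against 0.135, 0.899 and 1.41 in Ori. None of the 5 leukocyte genes was called by limma, with 0 and 2 at an unadjusted p under 0.05 in D14FL and D30FL over Ori (23.1% and 24.0% of all tested transcripts).

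The balance of CD22, an inhibitory receptor of B cells, to CD79A, a signalling chain of the B cell receptor, was also compared. The CD22 sum divided by CD79A was 2.01, 1.71 and 1.67 in the D14FL fish and 1.34, 2.27 and 1.20 in the D30FL fish, against 0.451, 1.05 and 0.891 in the Ori fish, so every D14FL and D30FL fish lay above every Ori fish. Among single transcripts, 27.8% of all tested ones did so in D14FL over Ori and 20.8% in D30FL over Ori. A shift common to all transcripts enters these shares but cancels in a ratio, and the share among ratios was not computed. These ratios were chosen after their values were seen, rest on levels of a few FPKM and were not tested.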
